A study of Mus musculus with 8 samples.

Results

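The genes described here are the chemokines and their receptors, 59 protein-coding genes of the 53697 in the gene table. A gene belonged to the group when its mouse symbol was Ccl, Cxcl, Cx3cl, Xcl, Ccr, Cxcr, Cx3cr, Xcr or Ackr followed by a number and at most 1 letter, so its measured level had no part in the choice. They comprise 37 ligand genes and 22 receptor genes. Of the 59 genes, 57 had at least 1 count, and 42 passed the filter on low counts and were tested, which is 30 of the ligands and 12 of the receptors. Cxcl11, a further interferon-induced ligand, was not analysed here.

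RNA was sequenced from mammary tumor cells of 4 mice in which the MMTV promoter drives the polyoma middle T oncogene (PyMT), a luminal-like mouse model of breast cancer on a C57BL/6 background. Mice 1 and 2 carried the PyMT-Dll1GFP reporter, a knock-in of GFP and CreERT2 at the Notch ligand gene Dll1, and mice 3 and 4 the PyMT-Dll1mCh reporter, a transgene built from a bacterial artificial chromosome. Tumors were digested, cells bearing CD45, CD31 or Ter119 were sorted away, and the rest was separated by reporter into Dll1+ and Dll1- cells, so each mouse gave 2 libraries and the 8 libraries form 4 pairs. The age of the mice was not given in the sources used here, and the reporter line cannot be told apart from anything else that differed between the pairs of mice, such as litter, sort day or sequencing depth.

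Chemokines are small secreted or membrane-bound proteins that steer the movement of leukocytes and other cells. They are grouped by the spacing of their first cysteines into CXC, CC, XC and CX3C ligands, and they act through receptors that couple to G proteins. Atypical receptors bind the same ligands without such coupling and take them up or carry them. In mammary tumors, ligands are made by tumor epithelium as well as by fibroblasts, macrophages and vessel cells, while most of the receptors are carried by leukocytes.

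Levels are given as CPM, the counts of a gene scaled to library size with TMM factors, and values are written as pairs, the Dll1- library first and the Dll1+ library second. Library totals ranged from 27301396 to 123907626 counts, the deepest being the Dll1- library of mouse 3, so 3 counts, taken as the floor of detection, equalled 0.024 to 0.105 CPM. Fold changes are log2 of Dll1+ over Dll1-, and adjusted p values come from edgeR's quasi-likelihood test with Benjamini-Hochberg adjustment over the 18322 genes tested and a threshold of 0.05. Dll1 itself, the gene of the sort, was at 7.61 and 87.5 CPM in mouse 1, 13.7 and 138 in mouse 2, 34.8 and 204 in mouse 3, and 50.3 and 250.2 in mouse 4, higher in the Dll1+ library of each mouse. The libraries of a group are separate mice. Epcam, an epithelial marker, was at no less than 899 CPM in every library, and Ptprc, which encodes the CD45 antigen used to remove leukocytes, was low but present, at 2.88 to 12.8 CPM.

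All 4 calls made in the family in the PyMT-Dll1GFP mice fell on 5 neighbouring CXC ligand genes of chromosome 5. Chemokines of this kind carry a Glu-Leu-Arg motif before their cysteines and draw neutrophils, mainly through Cxcr2. The 5 genes lie on the plus strand of chromosome 5 in GRCm38 in the order Cxcl5 (chr5:90759360-90761624), Cxcl3 (chr5:90786103-90789600), Cxcl15 (chr5:90794534-90803067), Cxcl1 (chr5:90891241-90893115) and Cxcl2 (chr5:90903871-90905938). The starts of Cxcl3, Cxcl15, Cxcl1 and Cxcl2 lie 26.7, 35.2, 131.9 and 144.5 kb from that of Cxcl5. In the PyMT-Dll1GFP mice Cxcl1, Cxcl2 and Cxcl5 were higher in Dll1+ cells and Cxcl15 was lower.

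The promoters of 4 of these genes are shown as RefSeq gives them for GRCm38.p6, because the ligands that rose and the ligand that fell lie in the same cluster. That of Ccl20, on another chromosome and described further on, is shown beside them. Each line holds 110 bases, from 140 to 31 bases before the annotated start of the gene, 5′ to 3′ on the gene's own strand, and capitals mark each match to the motif GGNNTTTCC, a short form of the NF-kB binding site, on either strand.
Cxcl1, chr5:90891105-90891214: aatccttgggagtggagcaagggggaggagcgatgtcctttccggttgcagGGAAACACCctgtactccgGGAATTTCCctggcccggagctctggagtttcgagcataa
Cxcl2, chr5:90903759-90903868: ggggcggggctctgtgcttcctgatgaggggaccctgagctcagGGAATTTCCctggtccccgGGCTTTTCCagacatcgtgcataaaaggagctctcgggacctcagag
Cxcl3, chr5:90785961-90786070: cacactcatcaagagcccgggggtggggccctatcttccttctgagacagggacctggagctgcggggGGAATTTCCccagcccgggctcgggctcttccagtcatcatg
Cxcl15, chr5:90794394-90794503: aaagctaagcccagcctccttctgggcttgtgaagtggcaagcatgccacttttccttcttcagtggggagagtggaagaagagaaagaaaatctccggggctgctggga
Ccl20, chr1:83116626-83116735: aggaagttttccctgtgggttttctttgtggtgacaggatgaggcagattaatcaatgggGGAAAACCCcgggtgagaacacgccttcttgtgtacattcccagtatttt

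The Cxcl1 and Cxcl2 stretches share a run of 14 bases that holds the motif, and the Cxcl1 and Cxcl3 stretches a run of 11 bases. In the Cxcl15 stretch these letters do not occur. RefSeq promoter windows of 300 bases, from 250 before to 50 after the start, were matched for 45 of the 59 genes, and 9 of those 45 held the motif, against 5.82% of all 32851 windows. The 9 were Cxcl1, Cxcl2, Cxcl3, Cxcl9, Cxcl10, Ccl9, Ccl20, Ccr3 and Ackr4. A second motif, AAANNGAAA, a form of the interferon response element, was held by 6 of the 45, against 10.6% of all windows. The 6 were Ccl19, Ccl27b, Ccl28, Ccr1, Cxcl10 and Cxcl14. For both motifs a gene was counted when any of its windows held a match, while the share of all windows counts single windows. The measures are unlike where a gene has several windows. A match is a description of the letters and says nothing of binding. Promoters of Cxcl5, Cxcl16, Cxcl17, Ccl2, Ccl4, Ccl5, Ccl7, Ccl11, Ccl24, Ccl26, Ccr7, Ccr10 and Cxcr5, among others, were not analysed here.

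Cxcl1 had the highest level of all 59 genes per length, 146 CPM per kb of exon as a mean of the 8 libraries. It was at 119 and 311 CPM in mouse 1, 188 and 502 in mouse 2, 113 and 125 in mouse 3, and 318 and 512 in mouse 4. The level was higher in the Dll1+ library of each of the 4 mice, by 2.62-, 2.67-, 1.11- and 1.61-fold in mice 1 to 4, but the Dll1+ level of mouse 3 lay below the Dll1- levels of mice 2 and 4, so the groups overlapped over all mice. In the PyMT-Dll1GFP mice the Dll1+ libraries both lay above the Dll1- libraries, and the log2 fold change was 1.40, 95% interval 1.06 to 1.74, adjusted p = 0.00501. In the PyMT-Dll1mCh mice it was 0.42, 95% interval 0.08 to 0.75, adjusted p = 0.104, and over the 4 mice it was 0.91, adjusted p = 0.0672.

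Cxcl2, which encodes a further ligand of Cxcr2, was at 33.0 and 84.3 CPM in mouse 1, 56.8 and 128 in mouse 2, 39.5 and 36.8 in mouse 3, and 73.9 and 121 in mouse 4. Mice 1, 2 and 4 showed the higher value in Dll1+ cells and mouse 3 did not. The log2 fold change was 1.26, 95% interval 0.71 to 1.82, adjusted p = 0.0349 in the PyMT-Dll1GFP mice and 0.31, adjusted p = 0.391 in the PyMT-Dll1mCh mice.

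Cxcl5, a further neutrophil attractant, was present at far lower levels of 0.546 and 1.78 CPM in mouse 1, 0.416 and 1.72 in mouse 2, 0.745 and 1.66 in mouse 3, and 1.12 and 1.31 in mouse 4. The Dll1+ libraries, at 1.31 CPM and above, did not overlap the Dll1- libraries, at 1.12 CPM and below, yet the call over the 4 mice was missed (log2 fold change 1.24, adjusted p = 0.062). In the PyMT-Dll1GFP mice the log2 fold change was 1.87, 95% interval 0.95 to 2.79, adjusted p = 0.0339, and in the PyMT-Dll1mCh mice 0.72, adjusted p = 0.209. Cxcl3, between Cxcl5 and Cxcl15, was not tested. Its highest level was 0.892 CPM, in the Dll1- library of mouse 4.

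Cxcl15, known as lungkine and named for its abundance in airway epithelium, moved the other way. It was at 6.65 and 0.523 CPM in mouse 1, 5.89 and 0.291 in mouse 2, 1.12 and 0.427 in mouse 3, and 8.09 and 0.756 in mouse 4. The 4 Dll1+ libraries, at 0.756 CPM and below, lay under the 4 Dll1- libraries, of which that of mouse 3 was the lowest at 1.12 CPM. Cxcl15 fell over the 4 mice (log2 fold change -3.18, 95% interval -4.46 to -1.91, adjusted p = 0.0192), in the PyMT-Dll1GFP mice (-3.99, adjusted p = 0.0182) and in the PyMT-Dll1mCh mice (-2.47, adjusted p = 0.0454). It was the only 1 of the 59 genes called in all 3 of these tests, which draw on the same libraries. Under the alternatives its log2 fold change stayed below 0 in each test, from -3.44 to -1.42 in PyMT-Dll1mCh mice. None of the 3 calls was kept under every alternative.

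**Figure D1:**
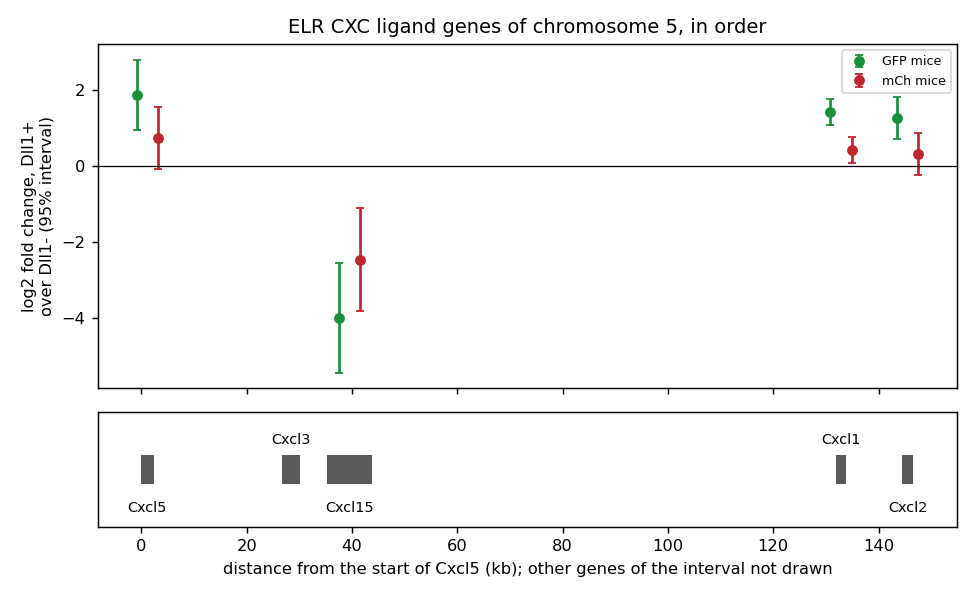
Log2 fold change of Dll1+ over Dll1- (vertical axis, points with 95% intervals) of the CXC ligand genes of chromosome 5 against distance from the start of Cxcl5 in kb, for PyMT-Dll1GFP mice (green) and PyMT-Dll1mCh mice (red), with the genes drawn to scale underneath and Cxcl3, which was not tested, without points. Cxcl5, Cxcl1 and Cxcl2 lie above 0 in both lines and Cxcl15, between them, lies below 0 in both.

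The receptors of these ligands were scarce in the sorted cells. Cxcr2 was at 1.26 and 1.64 CPM in mouse 1, 1.66 and 2.04 in mouse 2, 1.69 and 1.42 in mouse 3, and 1.29 and 0.989 in mouse 4, with no difference called in either line (log2 fold change 0.33, adjusted p = 0.488 in PyMT-Dll1GFP and -0.31, adjusted p = 0.463 in PyMT-Dll1mCh mice). Cxcr1 was at 0 in 6 of the 8 libraries and reached at most 0.033 CPM. The neutrophil markers S100a8, S100a9, Csf3r, Ly6g and Retnlg summed to 7.02 to 11.1 CPM in the PyMT-Dll1GFP and to 21.8 to 41.9 CPM in the PyMT-Dll1mCh libraries, most of it S100a8, while Ly6g did not exceed 0.0693 CPM and Retnlg was at 0 in all PyMT-Dll1GFP libraries. None of the 3 neutrophil markers tested was called between Dll1+ and Dll1- cells in either line.

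Over the 4 mice, 2 of the 42 tested genes were higher in Dll1+ cells, against 6.98% of all genes tested, and 4 were lower, against 7.04%. The higher 2 were Cx3cl1 and Ccl27a, and the lower 4 were Cxcl15, Cxcl10, Ccl2 and Ccl21a. At an unadjusted p under 0.05 there were 15 of the 42 and 5936 of all 18322 genes. The median log2 fold change of the 42 genes was -0.40, and that of all genes tested -0.001. These shares are near the background, so the number of calls sets the family apart from other genes in neither direction. Without mice 1, 2, 3 and 4 in turn the 2 higher became 0, 1, 0 and 1, and the 4 lower became 0, 1, 1 and 1. Over all genes the 1279 higher became 254, 410, 198 and 1035 in the same fits, and the 1289 lower became 179, 369, 207 and 1366.

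Cx3cl1 encodes fractalkine, a ligand that is held in the membrane by a mucin stalk and binds Cx3cr1. The gene lies at chr8:94772009-94782427 and came next to Cxcl1 per length, with a mean of 44.6 CPM per kb. It was at 177 and 235 CPM in mouse 1, 169 and 197 in mouse 2, 104 and 185 in mouse 3, and 129.7 and 205 in mouse 4. Each mouse had the higher level in Dll1+ cells, and the lowest Dll1+ library, at 185 CPM, lay above the highest Dll1- library, at 177 CPM. Its log2 fold change was 0.53, 95% interval 0.27 to 0.79, adjusted p = 0.0313 over the 4 mice, 0.74, adjusted p = 0.0108 in the PyMT-Dll1mCh mice and 0.31, adjusted p = 0.0853 in the PyMT-Dll1GFP mice. Between the lines, Cx3cl1 was the only family gene lower in PyMT-Dll1mCh than in PyMT-Dll1GFP Dll1- cells (-0.57, adjusted p = 0.0222).

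Ccl27a, at chr4:41769467-41774247, encodes a ligand of Ccr10 that is known from the epidermis. It was at 6.52 and 8.86 CPM in mouse 1, 8.84 and 11.4 in mouse 2, 7.64 and 11.9 in mouse 3, and 7.37 and 12.7 in mouse 4, higher in Dll1+ cells in each mouse, but the Dll1+ library of mouse 1 was level with the Dll1- library of mouse 2. Ccl27a had a log2 fold change of 0.56, 95% interval 0.29 to 0.83, adjusted p = 0.0291 over the 4 mice, 0.71, adjusted p = 0.0277 in the PyMT-Dll1mCh mice and 0.40, adjusted p = 0.131 in the PyMT-Dll1GFP mice. Exons of Ccl27a overlap those of Il11ra1 on the other strand, and it is not given in the sources used here whether the counting used strand, so reads of the overlap may belong to either gene. Il11ra1 was not called between Dll1+ and Dll1- cells (log2 fold change -0.24, adjusted p = 0.561 over the 4 mice). The receptor gene Ccr10 did not exceed 0.0698 CPM.

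Cxcl16, a membrane-bound ligand of Cxcr6, was also higher in Dll1+ cells in each mouse without passing the test. It was at 35.7 and 37.9 CPM in mouse 1, 33.2 and 54.3 in mouse 2, 34.9 and 40.7 in mouse 3, and 66.6 and 95.8 in mouse 4, and the highest Dll1- library, that of mouse 4, lay above all Dll1+ libraries of the other mice. The log2 fold change over the 4 mice was 0.39, 95% interval 0.11 to 0.66, adjusted p = 0.0729. Its exons overlap those of Zmynd15 on the other strand, which was at 3.09 to 5.98 CPM. The receptor gene Cxcr6 was at 0 in all PyMT-Dll1GFP libraries and at 0.153 to 0.462 CPM in the PyMT-Dll1mCh libraries.

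Ccl20, the ligand of Ccr6, was abundant in 1 mouse. It was at 0.887 and 0.698 CPM in mouse 1, 1.42 and 0.783 in mouse 2, 0.505 and 1.19 in mouse 3, and 17.6 and 39.4 in mouse 4, so the libraries of mouse 4 stood far above those of the other 3 mice in both sorts. It was higher in Dll1+ cells of both PyMT-Dll1mCh mice and lower in Dll1+ cells of both PyMT-Dll1GFP mice. The log2 fold change was 1.19, 95% interval 0.78 to 1.61, adjusted p = 0.0148 in the PyMT-Dll1mCh mice and -0.64, adjusted p = 0.137 in the PyMT-Dll1GFP mice, and the test of the difference between the lines gave 1.83, adjusted p = 0.0872. Without mouse 4 the PyMT-Dll1mCh value was 1.21, adjusted p = 0.243. The receptor gene Ccr6 reached at most 0.152 CPM.

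**Figure D2:**
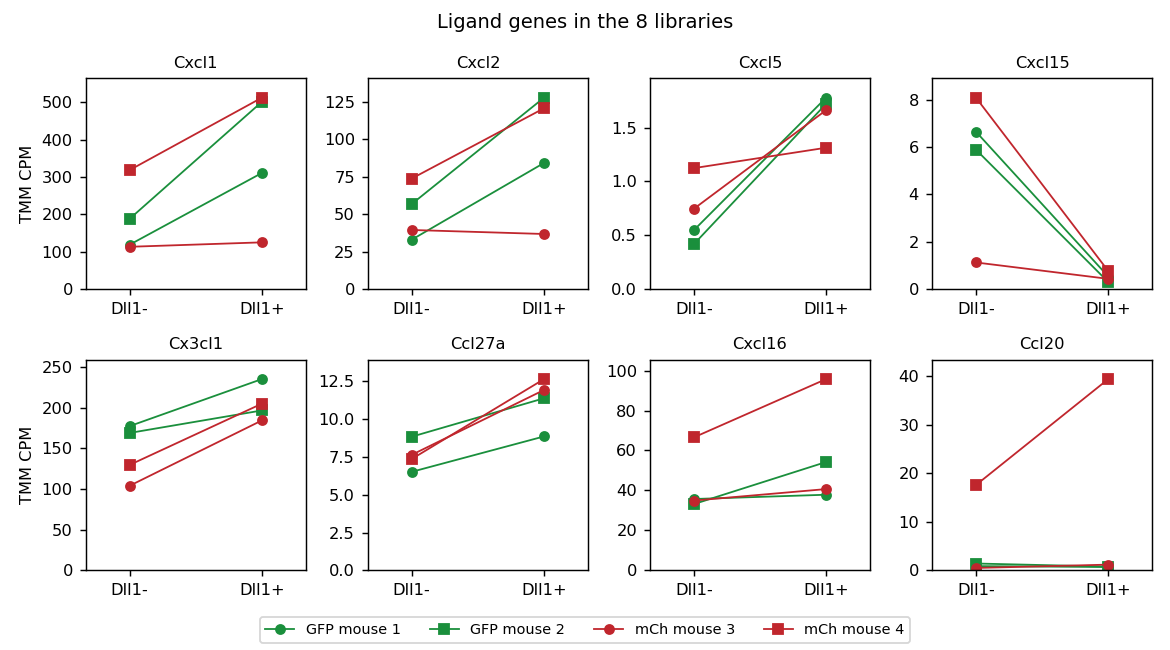
Levels of 8 ligand genes in TMM CPM (vertical axes from 0) in the Dll1- and Dll1+ libraries, with a line joining the libraries of each mouse, PyMT-Dll1GFP mice in green and PyMT-Dll1mCh mice in red. Cxcl15 falls and Cxcl1, Cxcl5, Cx3cl1, Ccl27a and Cxcl16 have lines that slope upward in all 4 mice, whereas Cxcl2 is flat in mouse 3 and Ccl20 is high in mouse 4.

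Cxcl10 and Cxcl9 encode interferon-induced ligands of Cxcr3, a receptor of T and NK cells. Cxcl10 was at 2.49 and 1.71 CPM in mouse 1, 3.22 and 1.72 in mouse 2, 9.43 and 5.89 in mouse 3, and 13.9 and 5.74 in mouse 4, lower in Dll1+ cells in each mouse, with the PyMT-Dll1mCh libraries of both sorts above all PyMT-Dll1GFP libraries. Its log2 fold change was -0.86, 95% interval -1.27 to -0.46, adjusted p = 0.0261 over the 4 mice, -0.98, adjusted p = 0.0385 in the PyMT-Dll1mCh mice and -0.73, adjusted p = 0.118 in the PyMT-Dll1GFP mice. Exons of Cxcl10 overlap those of Art3 on the other strand, and Art3 was itself lower in Dll1+ cells of PyMT-Dll1mCh mice (-2.62, adjusted p = 0.00846), so that value of Cxcl10 is uncertain.

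Cxcl9 was at 0.478 and 1.05 CPM in mouse 1, 0.555 and 0.917 in mouse 2, 3.32 and 2.15 in mouse 3, and 5.88 and 1.76 in mouse 4. It lay higher in Dll1+ cells of both PyMT-Dll1GFP mice and lower in those of both PyMT-Dll1mCh mice, with no call (log2 fold change 0.92, adjusted p = 0.211 and -1.17, adjusted p = 0.0693) and none for the difference (-2.09, adjusted p = 0.19). Cxcr3 reached at most 0.495 CPM, and T and NK cell markers (Cd3e, Cd3g, Cd3d, Cd8a, Cd4, Nkg7 and Trac) summed to 0.520 to 6.11 CPM.

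The Dll1 effect was also tested within each line. In the PyMT-Dll1GFP mice, 3 of the 42 genes were higher in Dll1+ cells (Cxcl1, Cxcl2 and Cxcl5), against 4.29% of all genes. There 1 was lower (Cxcl15), against 4.84%. An unadjusted p under 0.05 was seen for 10 of the 42 and for 4900 of all 18322 genes. The median log2 fold change was 0.02 (all genes, -0.01). In the PyMT-Dll1mCh mice, 3 were higher (Ccl20, Cx3cl1 and Ccl27a), against 5.51%, and 14 were lower, against 6.25%. Here 26 had an unadjusted p under 0.05, as did 5539 of all 18322 genes. The median was -0.82 (all genes, 0.02). The 14 comprised 8 of 18 CC ligands, Cxcl10, Cxcl13 and Cxcl15 of the CXC ligands, and the receptors Ccr1, Cx3cr1 and Ackr1. The 14 became 3 without mouse 4, 8 without mouse 3, 6 without mouse 1 and 5 without mouse 2, while the 1145 lower among all genes became 585, 962, 584 and 489. With the PyMT-Dll1mCh libraries fitted alone, 0 of all 19945 genes tested were called in either direction, the family included. In the PyMT-Dll1GFP mice the 4 calls were lost without mouse 1 and without mouse 2, where the 786 higher and 887 lower among all genes became 14 and 6, and 1 and 1.

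The test of whether the Dll1 effect differed between the lines took the log2 fold change in PyMT-Dll1mCh mice minus that in PyMT-Dll1GFP mice. With edgeR it called 0 of the 42 genes in either direction, against 0.00546% of all genes above 0 and 0.0655% below 0. A difference below 0 can be a stronger fall in PyMT-Dll1mCh mice as well as a weaker rise. At an unadjusted p under 0.05 there were 18 of the 42 and 2420 of all 18322 genes. DESeq2 called 1 family gene above 0 and 6 below 0, beside 121 and 420 of all 18322 genes. The lowest adjusted p were those of Ccl20 (0.0872) and Ccl8 (0.0879, log2 difference -1.28). Cxcl1, called in PyMT-Dll1GFP mice and not in PyMT-Dll1mCh mice, had a difference of -0.99, adjusted p = 0.132. No gene of the family can therefore be said from the edgeR test to respond in 1 line and not in the other.

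In direction alone, 7 of the 42 genes had the greater level in the Dll1+ library of every mouse, 16.7% against 21.4% of all genes, and 7 were lower in all 4, 16.7% against 19.9%. The higher 7 were Cxcl1, Cxcl5, Cxcl16, Cx3cl1, Ccl5, Ccl27a and Ackr4, and the lower 7 were Ccl2, Ccl3, Ccl8, Ccl21a, Ccl25, Cxcl10 and Cxcl15. A split by line, higher in both PyMT-Dll1GFP mice and lower in both PyMT-Dll1mCh mice, was seen for 9 genes, 21.4% against 5.34% of all genes. Those were Ccl6, Ccl19, Ccr1, Ccr7, Cxcl9, Cxcl12, Cxcl13, Cxcl14 and Cxcr2.

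**Figure D3:**
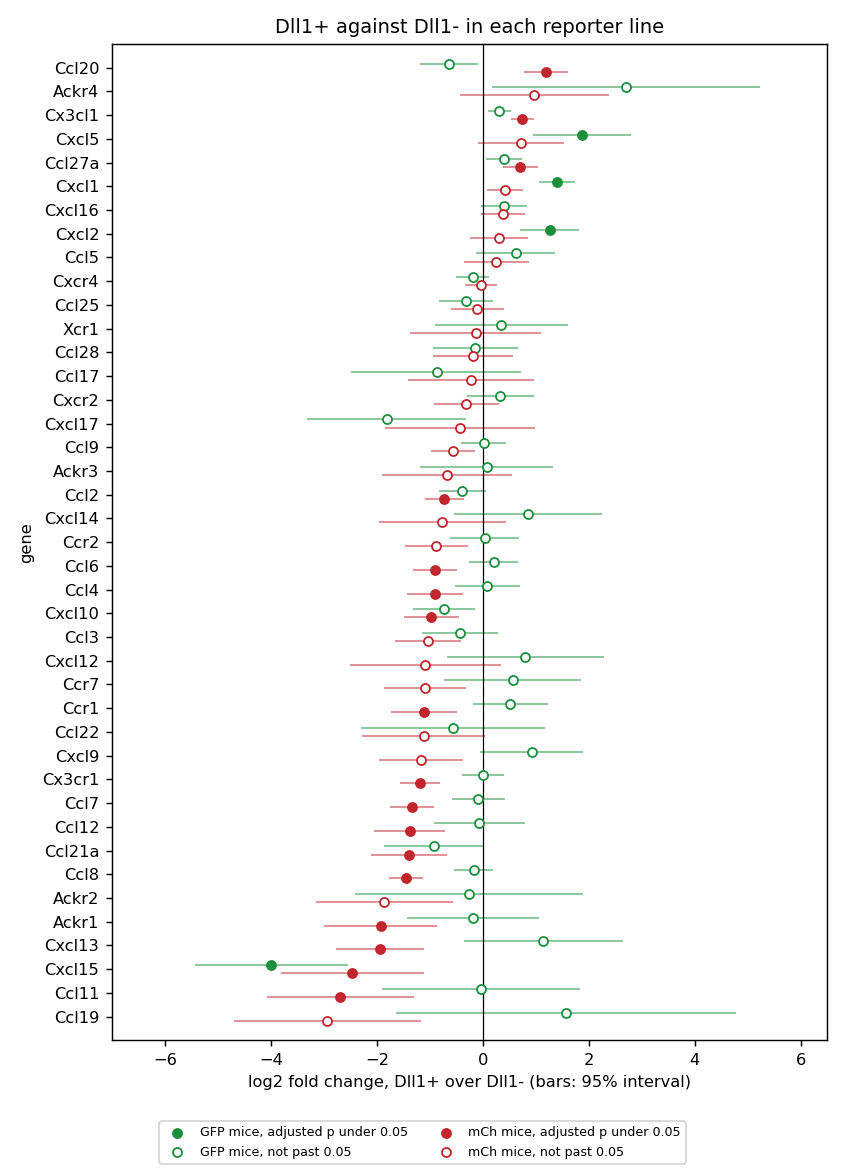
Log2 fold change of Dll1+ over Dll1- with 95% intervals (horizontal axis) for 41 of the 42 tested genes, ordered by the value in PyMT-Dll1mCh mice, with PyMT-Dll1GFP mice in green and PyMT-Dll1mCh mice in red and filled points for an adjusted p under 0.05. The red points lie mostly below 0, with 14 filled there, while the green points scatter around 0 with 3 filled above and 1 below.

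The CC ligands that fell in PyMT-Dll1mCh mice include a whole neighbourhood of chromosome 11. Ccl2 (chr11:82035571-82037453), Ccl7, Ccl11, Ccl12 and Ccl8 (chr11:82115185-82116799) lie in this order on the plus strand. All 5 were called lower there, against 6.25% of all genes, and none in PyMT-Dll1GFP mice, against 4.84%. With edgeR the difference of the Dll1 effect between the lines was called for none of them (adjusted p from 0.0879 for Ccl8 to 0.609 for Ccl2). The proteins of Ccl2, Ccl7 and Ccl12 draw monocytes through Ccr2, that of Ccl11 draws eosinophils through Ccr3, and that of mouse Ccl8 acts on Ccr8. Ccl1, at the far end of the cluster, was not tested and reached at most 0.468 CPM.

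Ccl2 was at 4.13 and 2.96 CPM in mouse 1, 3.74 and 3.04 in mouse 2, 13.5 and 6.78 in mouse 3, and 49.9 and 36.1 in mouse 4. It was lower in Dll1+ cells in each mouse, and mouse 4 stood above the other mice in both sorts. Its log2 fold change was -0.58, 95% interval -0.90 to -0.26, adjusted p = 0.0405 over the 4 mice, -0.73, adjusted p = 0.034 in PyMT-Dll1mCh mice and -0.39, adjusted p = 0.237 in PyMT-Dll1GFP mice.

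Ccl7 was at 1.84 and 1.50 CPM in mouse 1, 2.29 and 2.44 in mouse 2, 12.6 and 5.71 in mouse 3, and 31.7 and 11.1 in mouse 4, with a log2 fold change of -1.33, adjusted p = 0.0114 in PyMT-Dll1mCh and -0.08, adjusted p = 0.844 in PyMT-Dll1GFP mice. Ccl8 was at 2.05 and 1.71 CPM in mouse 1, 5.20 and 4.81 in mouse 2, 20.8 and 8.20 in mouse 3, and 34.4 and 11.8 in mouse 4 and gave the lowest adjusted p of the family in PyMT-Dll1mCh mice (log2 fold change -1.45, 95% interval -1.77 to -1.13, adjusted p = 0.00708). For both genes each PyMT-Dll1mCh library exceeded each PyMT-Dll1GFP library, whatever the sort.

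Ccl11 was at 0.853 and 1.08 CPM in mouse 1, 1.28 and 1.01 in mouse 2, 21.0 and 5.88 in mouse 3, and 55.6 and 4.71 in mouse 4, a spread of more than an order of magnitude between the lines in Dll1- cells, with a log2 fold change of -2.69, 95% interval -4.07 to -1.31, adjusted p = 0.0497 in PyMT-Dll1mCh mice. Ccl12 was at 0.307 and 0.314 CPM in mouse 1, 0.589 and 0.537 in mouse 2, 2.35 and 0.855 in mouse 3, and 2.31 and 0.935 in mouse 4 with -1.38, adjusted p = 0.0307. Summed, the 5 genes were at 9.18 and 7.57 CPM in mouse 1, 13.1 and 11.8 in mouse 2, 70.3 and 27.4 in mouse 3, and 174 and 64.5 in mouse 4.

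Farther along chromosome 11 lie Ccl5, Ccl9, Ccl6, Ccl3 and Ccl4 (chr11:83525778-83664683 from Ccl5 to Ccl4). Of these, 2 were lower in PyMT-Dll1mCh mice, against 6.25% of all genes, and none was called in PyMT-Dll1GFP mice. With edgeR none was called for the difference between the lines. Ccl4, a chemokine made by activated macrophages and lymphocytes, was at 1.67 and 1.36 CPM in mouse 1, 1.53 and 2.06 in mouse 2, 9.08 and 4.84 in mouse 3, and 8.79 and 4.66 in mouse 4, with -0.91, adjusted p = 0.0472 in PyMT-Dll1mCh mice. Ccl6, a ligand of Ccr1 made by myeloid cells in mice, was at 2.05 and 2.72 CPM in mouse 1, 3.47 and 3.51 in mouse 2, 9.58 and 5.39 in mouse 3, and 17.8 and 8.96 in mouse 4, with -0.91, adjusted p = 0.0267. In PyMT-Dll1GFP mice both genes had Dll1+ and Dll1- levels that overlapped.

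The other 3 genes of that cluster were not called between the sorts. Ccl3, a ligand of Ccr1, was at 1.60 and 0.837 CPM in mouse 1, 1.63 and 1.61 in mouse 2, 6.82 and 3.04 in mouse 3, and 6.74 and 3.65 in mouse 4, with a log2 fold change of -1.03, adjusted p = 0.0525 in PyMT-Dll1mCh mice. Ccl9, a further Ccr1 ligand, was at 5.19 and 6.03 CPM in mouse 1, 7.76 and 6.87 in mouse 2, 10.1 and 7.58 in mouse 3, and 14.5 and 8.76 in mouse 4. Ccl5, a T cell attractant, was at 0.614 and 1.05 CPM in mouse 1, 0.520 and 0.716 in mouse 2, 2.31 and 2.50 in mouse 3, and 1.82 and 2.41 in mouse 4, higher in Dll1+ cells in each mouse without passing the test (0.41, adjusted p = 0.214 over the 4 mice).

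Ccl21a and Ccl19 encode ligands of Ccr7, which guide dendritic cells and naive T cells into lymph nodes. Ccl21a was at 2.01 and 0.698 CPM in mouse 1, 0.485 and 0.447 in mouse 2, 8.77 and 3.94 in mouse 3, and 12.2 and 3.89 in mouse 4, lower in Dll1+ cells in each mouse, with a log2 fold change of -1.20, 95% interval -1.84 to -0.56, adjusted p = 0.0362 over the 4 mice and -1.40, adjusted p = 0.0354 in PyMT-Dll1mCh mice. Ccl21a has near-identical copies, of which Ccl21b was not tested and reached 2.02 CPM, and salmon may split reads between such copies, so the level of each is uncertain. Ccl19 was at 0.137 and 0.349 CPM in mouse 1, 0 and 0.0447 in mouse 2, 1.42 and 0.427 in mouse 3, and 3.90 and 0.180 in mouse 4, close to the floor in PyMT-Dll1GFP mice, with no call in PyMT-Dll1mCh mice (-2.93, 95% interval -4.70 to -1.17, adjusted p = 0.0559). Ccr7, their receptor, was at 0.137 and 0.174 CPM in mouse 1, 0.104 and 0.179 in mouse 2, 1.14 and 0.549 in mouse 3, and 1.78 and 0.810 in mouse 4.

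Cxcl13, the B cell attractant of lymphoid follicles, was at 0.0682 and 0.140 CPM in mouse 1, 0.104 and 0.246 in mouse 2, 1.75 and 0.610 in mouse 3, and 3.30 and 0.630 in mouse 4. It was lower in Dll1+ cells of both PyMT-Dll1mCh mice (-1.94, 95% interval -2.78 to -1.11, adjusted p = 0.0229) and near the floor in the PyMT-Dll1GFP Dll1- libraries. Its receptor gene Cxcr5 did not exceed 0.165 CPM, and the B cell markers Cd79a, Cd79b and Ms4a1 summed to 0.312 to 3.57 CPM.

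Cxcl12 and Cxcl14, both known from stromal cells, had fold changes of opposite sign in the lines, and neither was called. Cxcl12 was at 10.6 and 25.5 CPM in mouse 1, 13.6 and 17.2 in mouse 2, 37.6 and 30.6 in mouse 3, and 122 and 33.0 in mouse 4, with a log2 fold change of 0.80, 95% interval -0.69 to 2.28, adjusted p = 0.424 in PyMT-Dll1GFP and -1.09, 95% interval -2.51 to 0.33, adjusted p = 0.25 in PyMT-Dll1mCh mice. Cxcl14 was at 4.91 and 11.8 CPM in mouse 1, 6.62 and 9.26 in mouse 2, 61.6 and 58.6 in mouse 3, and 164 and 59.4 in mouse 4, with 0.86, adjusted p = 0.366 and -0.77, adjusted p = 0.319. The Dll1- library of mouse 4 held the highest level of both, and for Cxcl14 each PyMT-Dll1mCh library lay above each PyMT-Dll1GFP library.

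Cxcr4, the receptor of Cxcl12, had the highest level of the receptor genes per length, with a mean of 25.4 CPM per kb. It was at 45.1 and 43.4 CPM in mouse 1, 59.8 and 47.7 in mouse 2, 49.0 and 41.3 in mouse 3, and 38.0 and 42.6 in mouse 4, and the sorts overlapped in both lines. The log2 fold change over the 4 mice was -0.12, 95% interval -0.34 to 0.11, adjusted p = 0.424. Ackr3, which binds and takes up Cxcl12, was at 17.7 and 21.2 CPM in mouse 1, 17.8 and 16.4 in mouse 2, 30.6 and 32.5 in mouse 3, and 84.0 and 31.1 in mouse 4, with the Dll1- library of mouse 4 the highest and no call between the sorts.

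The receptors of monocytes and macrophages were higher in the PyMT-Dll1mCh Dll1- libraries than in any other. Cx3cr1, the fractalkine receptor, was at 6.11 and 5.65 CPM in mouse 1, 3.81 and 4.14 in mouse 2, 16.4 and 7.78 in mouse 3, and 14.4 and 5.90 in mouse 4, and its log2 fold change was -1.18, 95% interval -1.56 to -0.81, adjusted p = 0.0118 in PyMT-Dll1mCh and 0.00, adjusted p = 0.998 in PyMT-Dll1GFP mice. Ccr1, which binds Ccl3, Ccl5, Ccl6 and Ccl9, was at 1.06 and 1.29 CPM in mouse 1, 0.728 and 1.23 in mouse 2, 3.32 and 1.74 in mouse 3, and 4.20 and 1.71 in mouse 4, with -1.11, adjusted p = 0.0425 in PyMT-Dll1mCh and 0.52, adjusted p = 0.317 in PyMT-Dll1GFP mice. Cx3cr1 therefore moved opposite to its ligand gene Cx3cl1 in the PyMT-Dll1mCh mice.

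Ccr2, the receptor of Ccl2, was at 1.88 and 1.50 CPM in mouse 1, 1.84 and 2.35 in mouse 2, 4.26 and 2.50 in mouse 3, and 5.19 and 2.61 in mouse 4. It was not called between the sorts (-0.88, adjusted p = 0.0698 in PyMT-Dll1mCh mice). Summed, Ccr1, Ccr2 and Cx3cr1 were at 9.04 and 8.44 CPM in mouse 1, 6.38 and 7.72 in mouse 2, 24.0 and 12.0 in mouse 3, and 23.8 and 10.2 in mouse 4, so the PyMT-Dll1mCh Dll1- libraries stood alone and the other 6 lay between 6.38 and 12.0 CPM.

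Markers of other cell types were high in the same libraries. The antibodies of the sort were against leukocytes, endothelial and erythroid cells, and none was against fibroblasts or pericytes. Macrophage markers (Csf1r, Adgre1, Cd68, Mrc1, Lyz2, C1qa, C1qb and C1qc) summed to 118 and 121 CPM in mouse 1, 94.6 and 109.6 in mouse 2, 579 and 256 in mouse 3, and 604 and 269 in mouse 4, and 8 of 8 were called lower in Dll1+ cells of PyMT-Dll1mCh mice and 0 in PyMT-Dll1GFP mice. Leukocyte markers (Ptprc, Laptm5, Coro1a, Cd53, Tyrobp, Fcer1g and Cd52) summed to 27.8 and 28.1 CPM in mouse 1, 19.5 and 22.0 in mouse 2, 128 and 64.2 in mouse 3, and 137 and 57.6 in mouse 4, with 6 of 7 lower and 0. Fibroblast markers (Col1a1, Col1a2, Col3a1, Dcn, Lum, Pdgfra and Postn) summed to 1339 and 1237 CPM in mouse 1, 1447 and 1308 in mouse 2, 8253 and 3653 in mouse 3, and 23650.0 and 3789 in mouse 4, with 3 of 7 lower and 0. None of these 3 lists had a marker at 0 in any library. Their part in the fall of the CC ligands and receptors was not tested, and in bulk RNA fewer cells of a type and less RNA per cell cannot be told apart.

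Pericyte markers (Pdgfrb, Rgs5, Cspg4 and Mcam) summed to at most 129 CPM in PyMT-Dll1GFP, 553 and 706 CPM in PyMT-Dll1mCh Dll1- and 172 and 145 CPM in PyMT-Dll1mCh Dll1+ libraries, with 3 of 4 lower in PyMT-Dll1mCh mice. Endothelial markers (Pecam1, Cdh5, Kdr, Tek, Emcn and Vwf) summed to 45.1 to 49.4, 141 and 327, and 81.5 and 78.4 CPM, with 2 of 6 lower. Of the erythroid markers (Hba-a1, Hba-a2, Hbb-bs, Hbb-bt and Alas2) 4 of 5 were lower in PyMT-Dll1mCh mice and 1 in PyMT-Dll1GFP mice, and of the dendritic cell markers (Flt3, Xcr1, Clec9a and Itgax) Itgax was lower, 1 of 2 tested. No T and NK cell marker (4 tested) or B cell marker (2 tested) was called in either line. Epithelial markers (Epcam, Cdh1, Krt8, Krt18, Krt19, Krt14 and Krt5) summed to 5507 and 6115 CPM in mouse 1, 5105 and 5844 in mouse 2, 4799 and 6097 in mouse 3, and 6301 and 8843 in mouse 4, with less distance between the groups. Within that list the basal keratin gene Krt5 was higher in Dll1+ cells of both lines (log2 fold change 2.77, adjusted p = 0.0073 over the 4 mice), Krt14 was higher in PyMT-Dll1mCh mice and Krt19 lower in PyMT-Dll1GFP mice. Krt5 thus moved with Cx3cl1 and Ccl27a and opposite to Cxcl15, and the part of a basal share of the cells in those values was not tested.

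**Figure D4:**
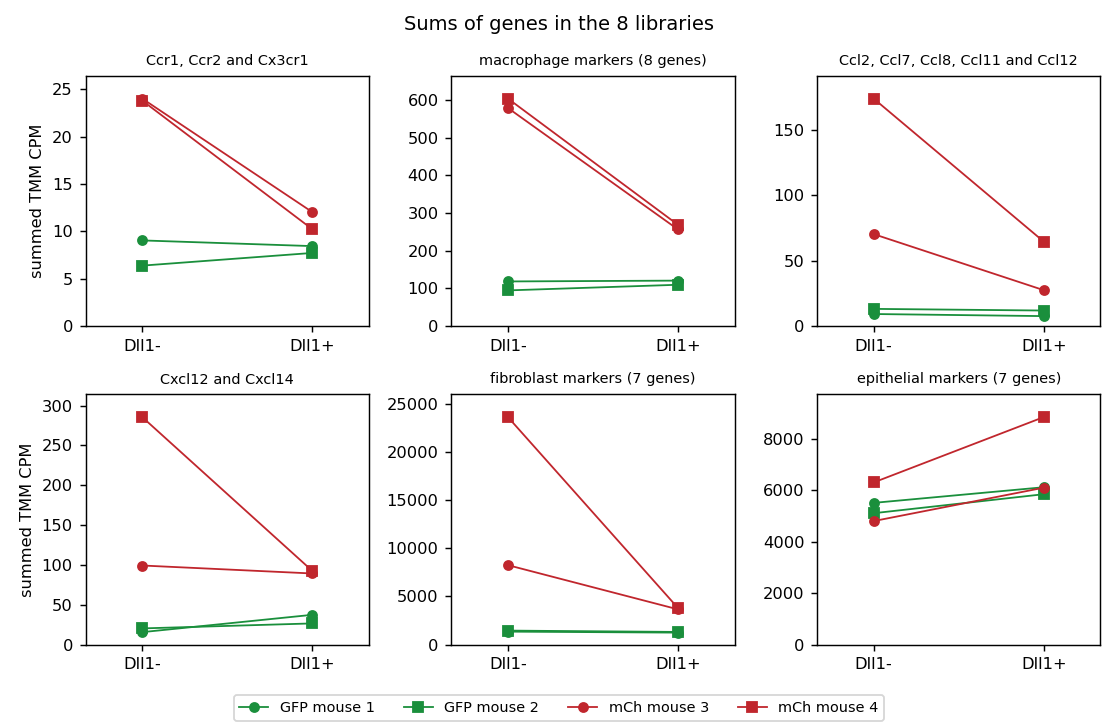
Summed TMM CPM (vertical axes from 0) of 3 groups of chemokine or receptor genes and of 3 lists of cell type markers in the Dll1- and Dll1+ libraries, joined by mouse, PyMT-Dll1GFP in green and PyMT-Dll1mCh in red. The receptor sum and the macrophage sum are high in the 2 PyMT-Dll1mCh Dll1- libraries, and Cxcl12 with Cxcl14 and the fibroblast sum are highest in the Dll1- library of mouse 4, while the epithelial sum differs less.

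Of the atypical receptors 1 was called between the sorts. Ackr1, the Duffy receptor of red cells and venules, was at 0.648 and 0.732 CPM in mouse 1, 1.18 and 0.850 in mouse 2, 3.16 and 1.45 in mouse 3, and 12.9 and 1.94 in mouse 4, lower in Dll1+ cells of PyMT-Dll1mCh mice (-1.93, 95% interval -3.00 to -0.86, adjusted p = 0.045). It shares exon sequence on the same strand with Cadm3, which fell there too (-3.06, adjusted p = 0.0298), so the Ackr1 value is uncertain. Ackr2, which takes up inflammatory CC ligands, was at 0.171 and 0.0349 CPM in mouse 1, 0.139 and 0.224 in mouse 2, 1.55 and 0.687 in mouse 3, and 2.77 and 0.450 in mouse 4, with no call (-1.86, adjusted p = 0.0743 in PyMT-Dll1mCh mice). Ackr4, which takes up Ccl19, Ccl21 and Ccl25, was at 0 and 0.453 CPM in mouse 1, 0.104 and 0.268 in mouse 2, 0.448 and 1.30 in mouse 3, and 1.22 and 1.60 in mouse 4. It was at or near the floor in the PyMT-Dll1GFP Dll1- libraries, and its exons overlap those of Acad11 on the other strand. Its value was higher in Dll1+ cells in each mouse, and no call was made (1.40, adjusted p = 0.157 over the 4 mice).

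Other ligands were not called between the sorts. Cxcl17, a mucosal chemokine, was at 6.69 and 1.33 CPM in mouse 1, 2.32 and 0.962 in mouse 2, 3.36 and 4.64 in mouse 3, and 2.87 and 1.01 in mouse 4, with a log2 fold change of -1.82, adjusted p = 0.131 in PyMT-Dll1GFP mice, and mouse 3 alone had the higher level in Dll1+ cells. Ccl22, a ligand of Ccr4, was at 0.375 and 0.105 CPM in mouse 1, 0.104 and 0.179 in mouse 2, 0.801 and 0.427 in mouse 3, and 1.42 and 0.558 in mouse 4. Ccl17, Ccl25 and Ccl28, ligands of Ccr4, Ccr9 and Ccr10, ranged over the libraries from 0.105 to 0.727, from 2.00 to 4.54 and from 0.774 to 1.02 CPM, and exons of Ccl25 overlap those of Elavl1 on the other strand. Xcr1, the receptor of cross-presenting dendritic cells, ranged from 0.378 to 1.61 CPM without a call.

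**Figure D5:**
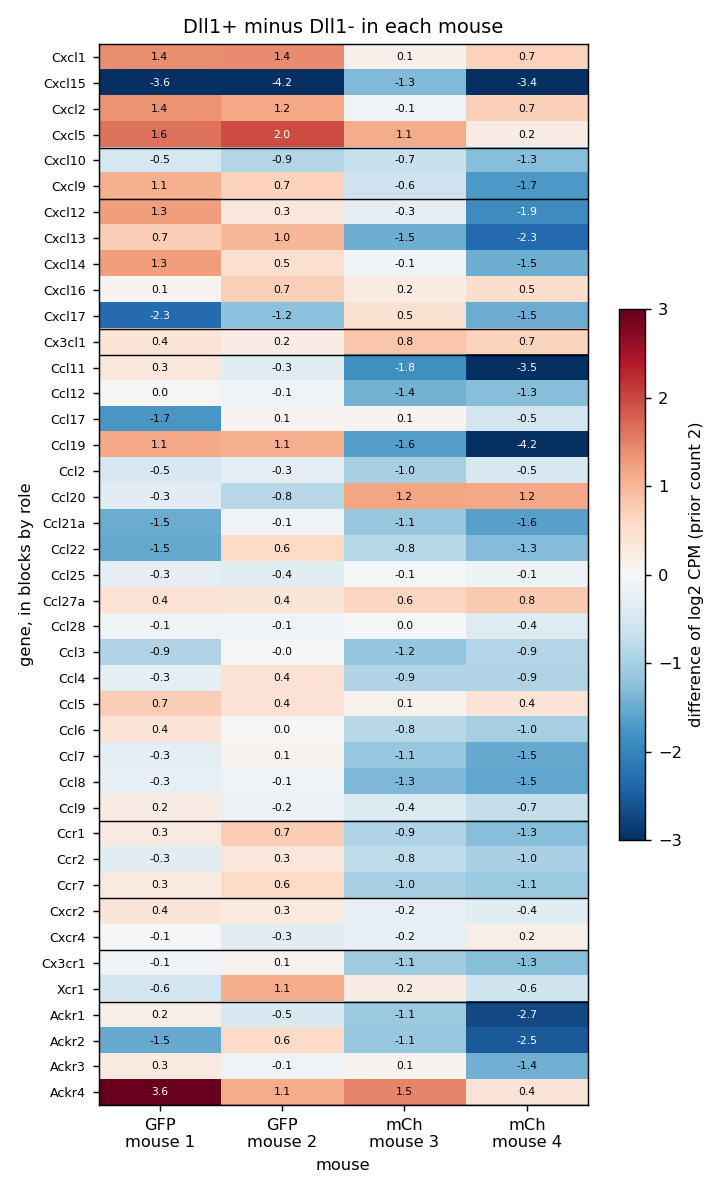
Difference of log2 CPM (prior count 2), Dll1+ minus Dll1-, in each mouse (columns) for 41 of the 42 tested genes (rows), in blocks by role from the CXC ligands at the top to the atypical receptors at the bottom, red for higher and blue for lower in Dll1+ cells. The columns of mice 3 and 4 are blue in each CC receptor drawn, and the row of Cxcl15 is blue in all 4 mice.

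The lines were compared within each sort. In Dll1- cells, 27 of the 42 genes were higher in PyMT-Dll1mCh than in PyMT-Dll1GFP mice, against 18.7% of all genes, and 1 was lower, against 17.9%, with a median log2 fold change of 2.05 (all genes, 0.01). In Dll1+ cells 10 were higher, against 15.2%, and 0 were lower, against 15.4%, with a median of 1.02 (all genes, 0.07). Without the PyMT-Dll1GFP Dll1- library of mouse 1 the 27 became 14, and without that of mouse 2 they became 17, while the 3422 higher among all genes became 1237 and 1386. Without the PyMT-Dll1GFP Dll1+ library of mouse 1 the 10 became 1, and without that of mouse 2 they became 2, while the 2786 among all genes became 486 and 388. Without the PyMT-Dll1GFP Dll1- library of either mouse, or without the PyMT-Dll1mCh Dll1- library of mouse 3, Cx3cl1 was not called and 0 genes were lower.

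The 27 genes were 13 CC ligands, 5 CXC ligands and 9 receptors. The widest differences in Dll1- cells were those of Ccl19 (log2 fold change 5.20, adjusted p = 0.0196, from libraries near the floor in PyMT-Dll1GFP mice), Ccl11 (5.16, adjusted p = 0.00179), Cxcl13 (4.82, adjusted p = 0.00207) and Cxcl14 (4.29, 95% interval 3.13 to 5.44, adjusted p = 0.00209). All 4 atypical receptors, the CC receptors Ccr1, Ccr2 and Ccr7, and Cx3cr1 were among the 27. Cxcl13, Ackr2 and Ccr7 did not exceed 0.246, 0.224 and 0.179 CPM in the PyMT-Dll1GFP libraries. They passed the filter on low counts only through PyMT-Dll1mCh libraries, so their place among the 27 is not independent of the filter. None of the 4 tested neutrophil-drawing ligands was called between the lines, and Cxcl1 had 0.49, 95% interval -1.24 to 2.23, adjusted p = 0.632 in Dll1- cells, with mouse 3 and mouse 4 far apart.

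In Dll1+ cells the 10 genes were Ccl3, Ccl4, Ccl5, Ccl7, Ccl11, Ccl21a, Ccr7, Cxcl10, Cxcl13 and Cxcl14. Their log2 fold changes ran from 1.43 for Ccl3 to 2.79 for Ccl21a, with Cxcl14 at 2.49, 95% interval 1.44 to 3.55, adjusted p = 0.01. Of the 10, Ccr7 and Cxcl13 passed the filter on low counts only through PyMT-Dll1mCh libraries. The markers of other cells were higher in PyMT-Dll1mCh mice as well. In Dll1- cells these were 8 of 8 macrophage, 7 of 7 leukocyte, 7 of 7 fibroblast, 6 of 6 endothelial, 3 of 4 pericyte, 3 of 3 neutrophil and 4 of 5 erythroid markers, and in Dll1+ cells 6 of 8 macrophage and 5 of 7 fibroblast markers. Their part in the difference between lines was not tested.

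Downstream of the receptors, 40 genes of G protein signalling, movement and desensitisation were all tested. Over the 4 mice 2 of the 40 were higher in Dll1+ cells (Arrb1 and Rgs2) and 5 lower (among them Elmo1, Pik3cd, Pik3r5 and Prex1), in PyMT-Dll1GFP mice 1 was higher and 0 lower, and in PyMT-Dll1mCh mice 3 were higher (Arrb1, Gng5 and Prkcd) and 6 lower (Dock2, Pik3cd, Pik3r5, Rac2, Rgs1 and Rgs16). The medians of the 40 log2 fold changes were -0.10, -0.06 and -0.14, beside -0.001, -0.01 and 0.02 for all genes. The shares of all genes called higher and lower were 6.98% and 7.04% over the 4 mice, 4.29% and 4.84% in PyMT-Dll1GFP mice, and 5.51% and 6.25% in PyMT-Dll1mCh mice.

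Arrb1, which encodes an arrestin that ends receptor signalling, was at 102 and 165 CPM in mouse 1, 92.8 and 148 in mouse 2, 48.0 and 79.4 in mouse 3, and 104 and 153 in mouse 4. It was higher in Dll1+ cells in each mouse, although mouse 3 lay lower than the others in both sorts, and the log2 fold change was 0.66, 95% interval 0.53 to 0.79, adjusted p = 0.00534 over the 4 mice and 0.68 and 0.64 in the 2 lines. Rgs16, a regulator that shortens G protein signals, was at 5.42 and 4.05 CPM in mouse 1, 3.81 and 3.96 in mouse 2, 36.2 and 11.3 in mouse 3, and 69.4 and 17.6 in mouse 4, with -1.83, adjusted p = 0.00705 in PyMT-Dll1mCh mice, and its 2 highest libraries were the PyMT-Dll1mCh Dll1- ones. Rac2, a GTPase of blood cells, was at 1.50 and 1.64 CPM in mouse 1, 1.32 and 1.79 in mouse 2, 9.16 and 4.03 in mouse 3, and 9.91 and 4.46 in mouse 4 with -1.17, adjusted p = 0.0184.

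Of 8 genes related to the family by function but outside the naming rule (Pf4, Ppbp, Ccrl2, Cmklr1, Rarres2, Cklf, Mif and Dpp4), 7 were tested. Ccrl2, which encodes a non-signalling receptor that presents chemerin, was at 14.7 and 24.8 CPM in mouse 1, 13.2 and 25.9 in mouse 2, 22.3 and 22.0 in mouse 3, and 32.4 and 36.2 in mouse 4, higher in Dll1+ cells of PyMT-Dll1GFP mice (0.86, 95% interval 0.59 to 1.13, adjusted p = 0.00911) and not called in PyMT-Dll1mCh mice (0.07, adjusted p = 0.704). Cmklr1, the chemerin receptor, and Pf4, a platelet and macrophage CXC ligand, were lower in Dll1+ cells of PyMT-Dll1mCh mice (-1.52, adjusted p = 0.0334 and -1.20, adjusted p = 0.0373). No other gene of the 7 was called in these tests, nor any over the 4 mice.

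The 17 family genes that were not tested comprised 7 ligands and 10 receptors. Ccl26 and Ccl27b were at 0 in all 8 libraries, which allows a level of up to 0.024 to 0.105 CPM, depending on the library, for counting error only. The other 15 reached at most 2.02 CPM. Among them were the receptors Ccr3, Ccr4, Ccr6, Ccr8, Ccr9, Ccr10, Cxcr1, Cxcr3, Cxcr5 and Cxcr6, all known from lymphocytes or granulocytes, and the ligands Ccl1, Ccl21b, Ccl24, Cxcl3 and Xcl1. With the filter on low counts in place, a difference between the sorts was not tested for these genes.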

How the data were processed

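RNA of sorted Dll1+ and Dll1- tumor cells from 4 mice was prepared with a stranded Illumina kit. The authors quantified GENCODE mouse transcripts (GRCm38.p6) with salmon and summed them to genes with tximport, and the deposited table holds estimated counts per gene as whole numbers, without normalization. The salmon version and its strand setting are not given in the sources used here. Of the 53697 genes, 53668 matched the GRCm38 annotation used for symbols, coordinates and exon lengths.

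Counts were scaled by TMM, filtered with filterByExpr and tested with edgeR 4.0.16 (limma 3.58.1, R 4.3.3) by the robust quasi-likelihood test over 18322 genes, with Benjamini-Hochberg adjustment and a threshold of 0.05. The study's 2-factor model of Dll1 status and mouse gave the test over 4 mice. A fit with a separate Dll1 effect for each reporter gave the tests within the lines and of their difference, and a fit of the 4 groups without mouse compared the lines. The pairs come from the mouse named in the labels. Deviations of same-mouse libraries from their group means correlated with r = 0.55 in the PyMT-Dll1mCh and r = -0.05 in the PyMT-Dll1GFP mice. The fit of the 4 groups took the libraries of a mouse as independent, so its p values may be too small. P values rest on 2 mice for each line, with the spread estimated jointly from the libraries of both lines. The scripts were tested on simulated data.

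The family, the lists of signalling, related and marker genes, and the motifs were chosen with earlier results of these data known. Values in every library are given for genes called in any test, those highest per length and those at the ends of the fold changes in each line, and the others by range. Alternatives were RLE size factors, DESeq2 1.42.0, other filters on low counts, no replicate block, single reporters or sorts, and mice or libraries left out in turn. A few genes of the family and of the lists are counted in the totals but not reported here by name.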

Additional observations from a re-analysis of the deposited data

Results flagged for a closer look

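In groups of 4 libraries of 1 sort, 5 of 84 groups had 1 library that stood apart from the other 3 by more than Dixon's critical ratio. Chance gives about 1 in 20 for values of a single normal population. Each group here joins both lines, which differed in the level of many of these genes, so that rate may not hold. Ccl20 was at 17.6 CPM in the Dll1- and 39.4 CPM in the Dll1+ library of mouse 4, against 0.504 to 1.42 and 0.698 to 1.19 CPM in the other mice. Ccl2 was at 36.1 CPM in the Dll1+ library of mouse 4, against 2.96 to 6.78 CPM. Cxcl16 was at 66.5 CPM in the Dll1- library of mouse 4, against 33.2 to 35.7 CPM. Cxcl17 was at 4.64 CPM in the Dll1+ library of mouse 3, against 0.962 to 1.32 CPM. Of these 5 values, 4 came from mouse 4. In the main edgeR fit, no gene of the family passed the test of a difference of the Dll1 effect between the lines.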

How the results depend on the processing

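No call of a chemokine or receptor gene changed direction under any alternative run for it, and the signalling and marker genes were not rerun one by one. The numbers of calls were less stable. DESeq2 called 6 genes higher over the 4 mice (edgeR 2) and 2 lower in PyMT-Dll1GFP mice (edgeR 1). Over all genes these were 2133 and 1054 (edgeR 1279 and 887). For the log2 fold change in PyMT-Dll1mCh minus that in PyMT-Dll1GFP mice, it called 1 above 0 and 6 below 0 (edgeR 0 and 0). Over all 18322 genes these were 121 and 420 (edgeR 1 and 12). With no filter on low counts, 5 were higher and 3 lower in PyMT-Dll1GFP mice, and 5 were higher in PyMT-Dll1mCh mice (3, 1 and 3 with it). For the difference between the lines, 1 was above 0 and 10 below 0. Of all 34834 genes then tested, the counts in the same order were 1450, 1551, 1415, 294 and 849. With a reporter fitted alone, 2 were lower in PyMT-Dll1GFP mice, beside 1205 of all 17798 genes. In PyMT-Dll1mCh mice 0 were higher and 0 lower (3 and 14 in the fit of all libraries), where 0 of all 19945 genes were called. With no replicate block (the mouse that both libraries of a pair came from), 1 was higher and 2 lower over the 4 mice. There were 0 and 0 in PyMT-Dll1GFP mice, and 0 and 1 in PyMT-Dll1mCh mice. Over all genes the 3 pairs of counts were 587 and 765, 93 and 181, and 50 and 162. With 1 mouse left out at a time there were 0 to 1 higher and 0 to 1 lower over the 4 mice, 0 to 3 and 0 to 2 in PyMT-Dll1GFP mice, 1 to 4 and 3 to 8 in PyMT-Dll1mCh mice, and 0 to 1 and 0 to 5 for the difference. Leaving out each library gave 14 to 28 higher and 0 to 2 lower in PyMT-Dll1mCh than in PyMT-Dll1GFP Dll1- cells, and 1 to 15 higher in Dll1+ cells. Over all genes, leaving out 1 mouse gave 198 to 1035 higher and 179 to 1366 lower over the 4 mice. For the difference, each such fit left 1 mouse in a line. Calls over all genes and the number of family genes tested moved as well, so these counts cannot by themselves set the family apart. Leaving out a Dll1+ library gave 2822 to 3568 of all genes higher in Dll1- cells. Without the PyMT-Dll1mCh Dll1- library of mouse 3, the 15 in Dll1+ cells stood beside 3013 of all 18207 genes. RLE size factors and at least 10 counts in every library moved no count by over 1.5 times. For genes listed near 3 counts in PyMT-Dll1GFP libraries, such as Ccl19, Cxcl13 and Ackr4, depth limits the fold change.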
